A study of Mus musculus with 14 samples.

Results

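Gata4, Gata6, Sox7, Sox17 and Foxa2 are transcription factors of the endoderm lineages. They were taken by symbol from the deposited tables of total counts and of T>C conversion counts, and make up 5 of the 36335 entries with a gene name. All 5 had enough total counts to enter the tests of total RNA, and 4, all but Sox17, had enough conversion counts to enter the tests of label loss. They were measured in 14 libraries from the mouse embryonic stem cell line E14. Of these, 6 came from WT and 8 from Mettl3-KO cells, which lack the catalytic subunit of the enzyme that places m6A on mRNA. Cells of both genotypes grew on gelatin with serum and LIF. For 2 weeks they were kept paused with 200 nM INK128, an inhibitor of the growth kinase mTOR. S4U, a uridine analogue that is built into new RNA, was then supplied at 100 µM for 12 h with fresh medium every 3 h. Cells were collected at 0, 1, 3 and 8 h after S4U was withdrawn, and libraries of mRNA 3′ ends were made from 100 ng of RNA treated with 10 mM iodoacetamide, so that the label reads as T>C conversions. Each time has 2 libraries per genotype, except that the WT times 0 h and 3 h have 1. The labels do not say how many clones each genotype comes from. Nor do they say whether replicates are separate cultures, so the spread behind every p-value is that between these libraries and may be technical.

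In the early embryo, GATA6 and GATA4 are zinc finger factors that set up the primitive endoderm, the layer that gives rise to the yolk sac, in opposition to the pluripotency factor NANOG. SOX17 and SOX7 belong to the same SOX subfamily and act after the GATA factors in that lineage, and SOX17 also acts in definitive endoderm, the source of the gut. FOXA2 is a forkhead factor that opens chromatin in definitive and visceral endoderm and is also a marker of the node, notochord and floor plate. Embryonic stem cells in serum and LIF usually hold a small fraction of cells that transcribe primitive endoderm genes.

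Total counts were between 6108102 and 26654217 in 12 libraries, 5 of WT and 7 of Mettl3-KO, here called the deep libraries. WT at 1 h replicate 2 held 49154 counts and Mettl3-KO at 3 h replicate 2 held 602297, and all 5 genes had 0 counts in both. A floor of 3 counts is worth 60.9 and 8.39 CPM (counts per 1000000) there, above every level of the 5 genes in deeper libraries of the same genotype, so a count of 0 there does not show a lower level. Levels are therefore given for the deep libraries, while the tests across all genes used all 14 unless stated. Mettl3 itself stood at 44.4 CPM ± 20.4 (SD, n = 5) in deep WT libraries and at 1.67 ± 0.44 (SD, n = 7) in Mettl3-KO. The embryonic stem cell genes Pou5f1 (53.6 against 56.2 CPM), Sox2 (1699 against 1481) and Nanog (329 against 297) were expressed in both genotypes and not called different. Of the 5 Y-linked genes tested, 4 were higher in Mettl3-KO, with a median log2 difference of 6.57 over the 5. Whether a difference below belongs to the loss of Mettl3 or to another difference between the cell lines cannot be told apart. For both Mettl3-KO libraries at 8 h, the source label names E15 and E16 where the cell line label says E14. Where leaving both out ended a call or moved a count of calls by over 1.5 times, this is said beside the result.

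Gata4, Gata6 and Sox7 RNA fell in Mettl3-KO by 11.7-fold, 6.98-fold and 11.3-fold. Foxa2 RNA rose by 3.64-fold, and Sox17 did not pass the threshold. Thus 3 of the 5 genes were called lower and 1 higher, at a Benjamini-Hochberg adjusted p under 0.05 in edgeR's quasi-likelihood test. Over all 14641 genes tested, 9.99% were called lower and 12.1% higher. Foxa2 reached the filter of 10 counts in 6 libraries with Mettl3-KO libraries alone, the group where it is high. Its call and the count of 1 higher are therefore a description of these libraries and no support. With no count filter Foxa2 was not called. WT has 5 deep libraries, so a low-level gene found in WT alone could not enter these tests. The median log2 difference was -2.80 over the 5 genes and 0.05 over all genes. RNA came from whole cultures, so a smaller number of cells with a transcript and less of it in each cell cannot be told apart.

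Gata4 had 44, 64, 57, 61 and 34 counts in the deep WT libraries at 0 h, 1 h, 3 h and both 8 h replicates. In Mettl3-KO it had 5 and 7 counts at 0 h, 8 and 16 at 1 h, 3 at 3 h, and 5 and 16 at 8 h. Gata4 lay between 2.34 and 9.08 CPM in WT and between 0.128 and 0.794 in Mettl3-KO, so every deep WT library was above every deep Mettl3-KO library. The means were 5.11 CPM ± 2.48 (SD, n = 5) and 0.435 ± 0.215 (SD, n = 7). The log2 difference was -3.55 (SE 0.47, edgeR adjusted p = 0.000165).

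Gata6, the other GATA factor (chromosome 18, 11052510 to 11085636 on GRCm38.p6, the assembly of mm10), had 58 counts at 0 h, 66 at 1 h, 34 at 3 h, and 76 and 44 at 8 h in deep WT libraries. In Mettl3-KO it had 18 and 18 counts at 0 h, 13 and 19 at 1 h, 15 at 3 h, and 9 and 12 at 8 h. WT libraries ranged from 2.96 to 9.37 CPM and Mettl3-KO libraries from 0.453 to 1.09, again with no overlap. Means were 5.42 ± 2.69 (SD, n = 5) and 0.796 ± 0.252 (SD, n = 7), a log2 difference of -2.80 (SE 0.44, edgeR adjusted p = 0.000572).

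Sox7 counts in deep WT libraries were 269 at 0 h, 44 at 1 h, 117 at 3 h, and 180 and 31 at 8 h. Mettl3-KO libraries held 18 and 6 at 0 h, 27 and 10 at 1 h, 11 at 3 h, and 19 and 19 at 8 h. The lowest WT library, 8 h replicate 2 at 4.72 CPM, was above the highest Mettl3-KO library, 8 h replicate 1 at 1.67 CPM. Means were 9.45 CPM ± 3.95 (SD, n = 5) and 0.855 ± 0.477 (SD, n = 7). The log2 difference was -3.50 (SE 0.47, edgeR adjusted p = 0.000179). Complete separation with WT above Mettl3-KO, as in these 3 genes, was present in 10.2% of the 14641 genes.

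Sox17, the relative of Sox7, had far fewer counts: 38 at 0 h, 2 at 1 h, 18 at 3 h, and 13 and 11 at 8 h in deep WT libraries. In Mettl3-KO it had 3 and 0 counts at 0 h, 2 and 10 at 1 h, 14 at 3 h, and 6 and 12 at 8 h. The groups overlap through 1 library, WT at 1 h, which at 0.284 CPM lies inside the Mettl3-KO range of 0 to 0.600 CPM. The other 4 deep WT libraries, from 0.853 to 2.02 CPM, are above that range. Means were 1.28 ± 0.70 (SD, n = 5) and 0.335 ± 0.240 (SD, n = 7), and the log2 difference of -1.90 (SE 0.73, edgeR adjusted p = 0.0783) missed the threshold. It passed in DESeq2 (log2 difference -2.18, adjusted p = 0.0301) and in edgeR without Mettl3-KO at 1 h replicate 2 (adjusted p = 0.0371). That was the 1 call among 14 edgeR fits that each left out a single library. Over these fits the log2 difference ran from -2.23 to -1.12, with edgeR adjusted p up to 0.331.

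Foxa2 was the gene with the opposite direction. Deep WT libraries held 4 counts at 0 h, 7 at 1 h, 18 at 3 h, and 25 and 4 at 8 h. Mettl3-KO libraries held 61 and 16 at 0 h, 92 and 59 at 1 h, 49 at 3 h, and 66 and 150 at 8 h. WT ranged from 0.213 to 1.64 CPM and Mettl3-KO from 0.973 to 5.82 CPM, with Mettl3-KO at 0 h replicate 2 inside the WT range and the other 6 Mettl3-KO libraries above it. Means were 1.00 CPM ± 0.61 (SD, n = 5) and 3.6 ± 1.78 (SD, n = 7).

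The log2 difference of Foxa2 was 1.86 (SE 0.57, edgeR adjusted p = 0.0303), and 1.99 (adjusted p = 0.00582) in the deep libraries alone. The highest Foxa2 levels, 5.82 and 5.67 CPM, were those of the 2 Mettl3-KO libraries at 8 h. Without both of them the log2 difference was 1.66 and the edgeR adjusted p 0.244, while Gata4 (-3.75), Gata6 (-2.51) and Sox7 (-3.78) were still called lower. Leaving out any 1 of 7 libraries ended the Foxa2 call, with edgeR adjusted p between 0.0505 and 0.101. These were WT at 0 h, WT at 1 h replicate 1, both WT libraries at 8 h, Mettl3-KO at 1 h replicate 1 and both Mettl3-KO libraries at 8 h.

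**Figure D1:**
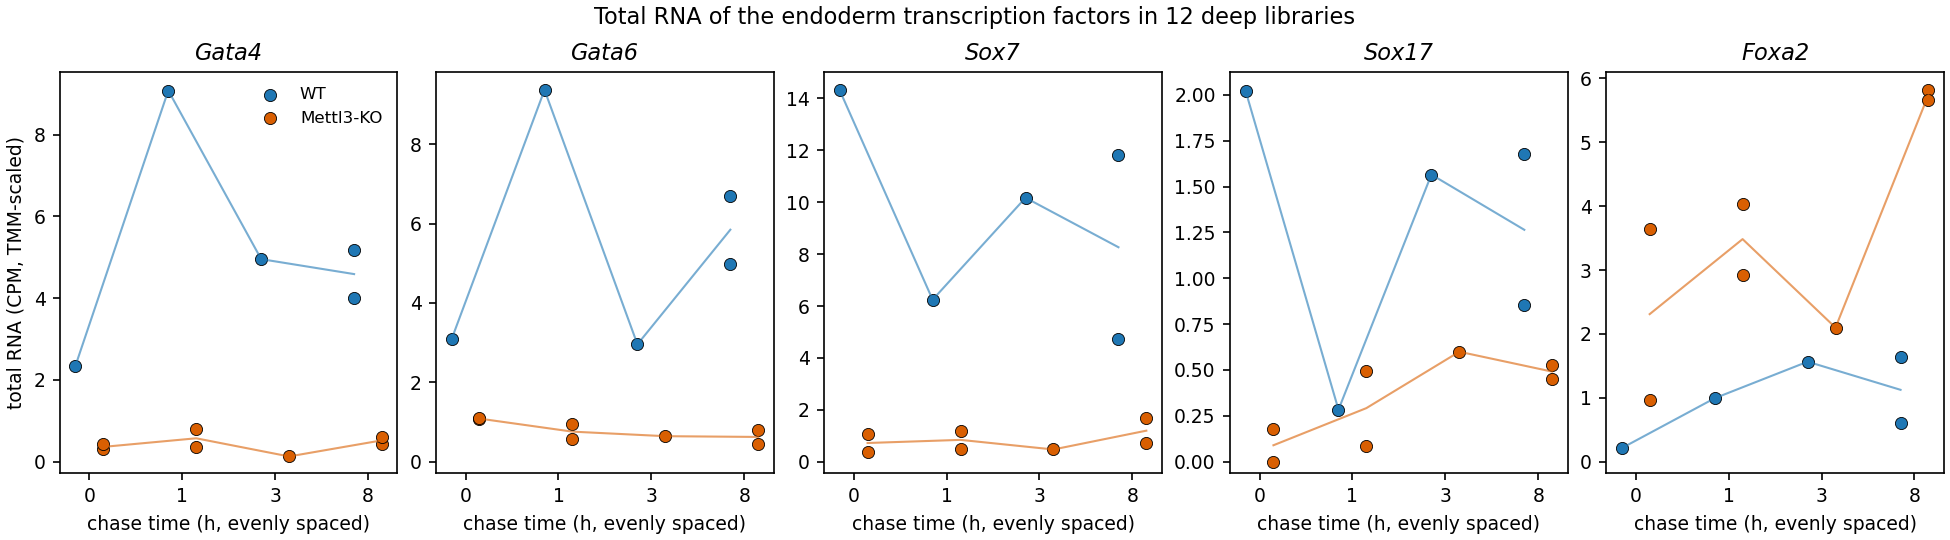
Total RNA of each gene (y axis, CPM with TMM scaling, a separate linear scale per gene) in the 12 deep libraries by chase time (x axis, h, evenly spaced); points are libraries, lines join group means, blue is WT and orange Mettl3-KO. For Gata4, Gata6 and Sox7 all 5 WT points lie above all 7 Mettl3-KO points, for Sox17 the WT point at 1 h falls among them, and for Foxa2 the Mettl3-KO points are mostly the higher ones.

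**Figure D2:**
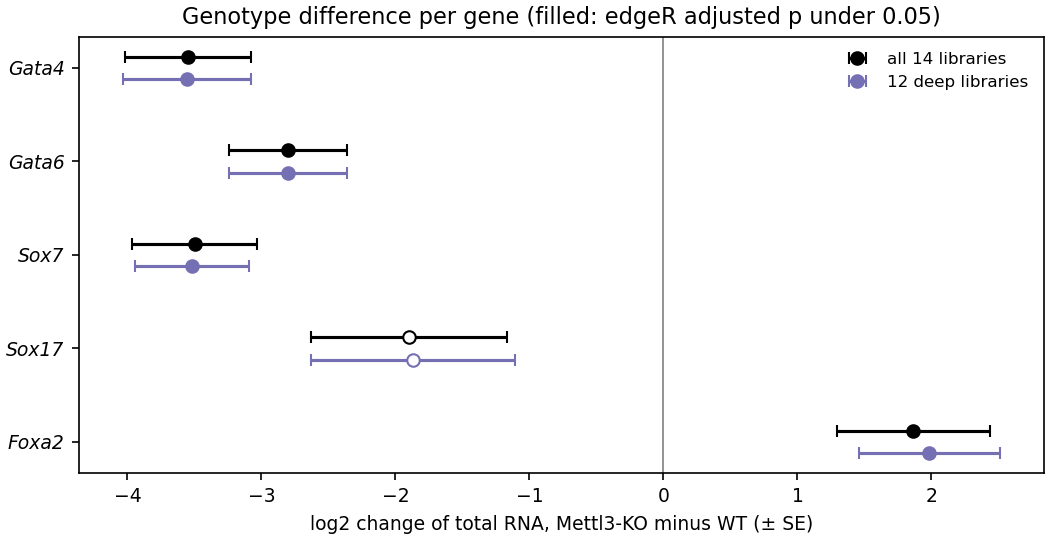
Log2 difference in total RNA, Mettl3-KO minus WT (x axis, bars ± SE), from edgeR with all 14 libraries (black) and with the 12 deep libraries (purple); filled points have an adjusted p under 0.05. Gata4, Gata6 and Sox7 lie between -3.55 and -2.80 with all libraries, Sox17 at -1.90 is open in both fits, and Foxa2 lies at 1.86 and 1.99.

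Within WT, the libraries did not rank alike for the 5 genes. Gata4 and Gata6 were highest at 1 h, at 9.08 and 9.37 CPM. Sox7 and Sox17 were highest at 0 h, at 14.3 and 2.02 CPM, and Sox17 was lowest at 1 h. Both deep WT 8 h libraries were close for Gata4 (between 4 and 5.2 CPM) but not for Sox7 (11.8 and 4.72 CPM). In Mettl3-KO the 2 libraries at 0 h differed most for Foxa2, at 3.65 and 0.973 CPM.

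By group mean, Gata4 was ordered WT at 1 h (9.08 CPM), 3 h (4.96), 8 h (4.59) and 0 h (2.34), followed by Mettl3-KO at 1 h (0.573), 8 h (0.523), 0 h (0.362) and 3 h (0.128). The order for Gata6 was WT at 1 h (9.37 CPM), 8 h (5.84), 0 h (3.09) and 3 h (2.96), then Mettl3-KO at 0 h (1.09), 1 h (0.757), 3 h (0.642) and 8 h (0.623). Sox7 ran from WT at 0 h (14.3 CPM), 3 h (10.2), 8 h (8.27) and 1 h (6.24) to Mettl3-KO at 8 h (1.2), 1 h (0.841), 0 h (0.720) and 3 h (0.471). In these 3 genes the 4 WT means came first and the 4 Mettl3-KO means last, and the order of times within a genotype differed from gene to gene.

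Sox17 and Foxa2 did not sort cleanly by genotype. Sox17 means were highest in WT at 0 h (2.02 CPM), 3 h (1.57) and 8 h (1.26), and WT at 1 h (0.284) came below Mettl3-KO at 3 h (0.600), 8 h (0.491) and 1 h (0.292), with Mettl3-KO at 0 h (0.0897) last. Foxa2 means ran from Mettl3-KO at 8 h (5.74 CPM), 1 h (3.48), 0 h (2.31) and 3 h (2.10) to WT at 3 h (1.57), 8 h (1.12), 1 h (0.993) and 0 h (0.213). With 1 or 2 deep libraries a group, neighbours in these orders were not tested against each other.

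A linear trend of total RNA with chase hours was not called for any of the 5 genes in either genotype, and the trend did not differ between genotypes past the threshold. Per hour, the difference in log2 slope lay between -0.11 for Gata6 (SE 0.12) and 0.20 for Sox17 (SE 0.20). The background was 0% of 14641 genes. An unadjusted p under 0.05 was reached by 728 genes in edgeR, and DESeq2 called 197. Slopes of Foxa2 and Gata4 had no stable sign when single libraries were left out.

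To see whether the 5 genes differed among themselves, the log2 ratio of 2 genes was taken within each deep library and compared between genotypes. The ratio is of CPM + 0.5, and the test was a two-sided exact permutation test of genotype within chase time. It has 108 assignments and a smallest possible p of 0.00926, and p-values were adjusted over the 10 pairs. The ratios to Foxa2 were lower in Mettl3-KO for all 4 other genes, each at the smallest p (adjusted p = 0.0185). The log2 differences were -3.92 for Gata4/Foxa2, -3.51 for Gata6/Foxa2, -4.26 for Sox7/Foxa2 and -2.45 for Sox17/Foxa2. In the Sox7/Foxa2 ratio, WT libraries lay between 2.18 and 4.38 and Mettl3-KO libraries between -2.34 and -0.77.

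The 2 SOX genes also separated. The Sox7/Sox17 log2 ratio was 2.50 ± 0.77 (SD, n = 5) in WT and 0.68 ± 0.64 (SD, n = 7) in Mettl3-KO (exact permutation test, adjusted p = 0.0185), and 1 WT library lay inside the Mettl3-KO range. Gata4/Sox17 differed by -1.47 (exact permutation test, adjusted p = 0.0463). With a pseudocount of 0.1 CPM both pairs missed the threshold (exact permutation adjusted p = 0.159). Sox17 averaged 0.335 CPM in Mettl3-KO, below the pseudocount of 0.5. Gata4/Gata6 (-0.41, exact permutation p = 0.167) and Gata4/Sox7 (0.34, exact permutation p = 0.537) did not pass, nor did Gata6/Sox7 and Gata6/Sox17. Without WT at 1 h replicate 1 no pair passed, because the test then has too few assignments: the adjusted p was at best 0.0556. Leaving out single libraries ended the Gata4/Sox17 call in 10 of 12 runs. The Sox7/Sox17 call was also lost without Mettl3-KO at 0 h replicate 1, and the Gata6/Foxa2 call without either Mettl3-KO library at 1 h. Gata4/Gata6 passed without Mettl3-KO at 8 h replicate 2. Without the Mettl3-KO 8 h libraries this exact permutation test cannot go below p = 0.0556 and no pair passed. The 4 ratios to Foxa2 then differed by -4.10 to -2.27.

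**Figure D3:**
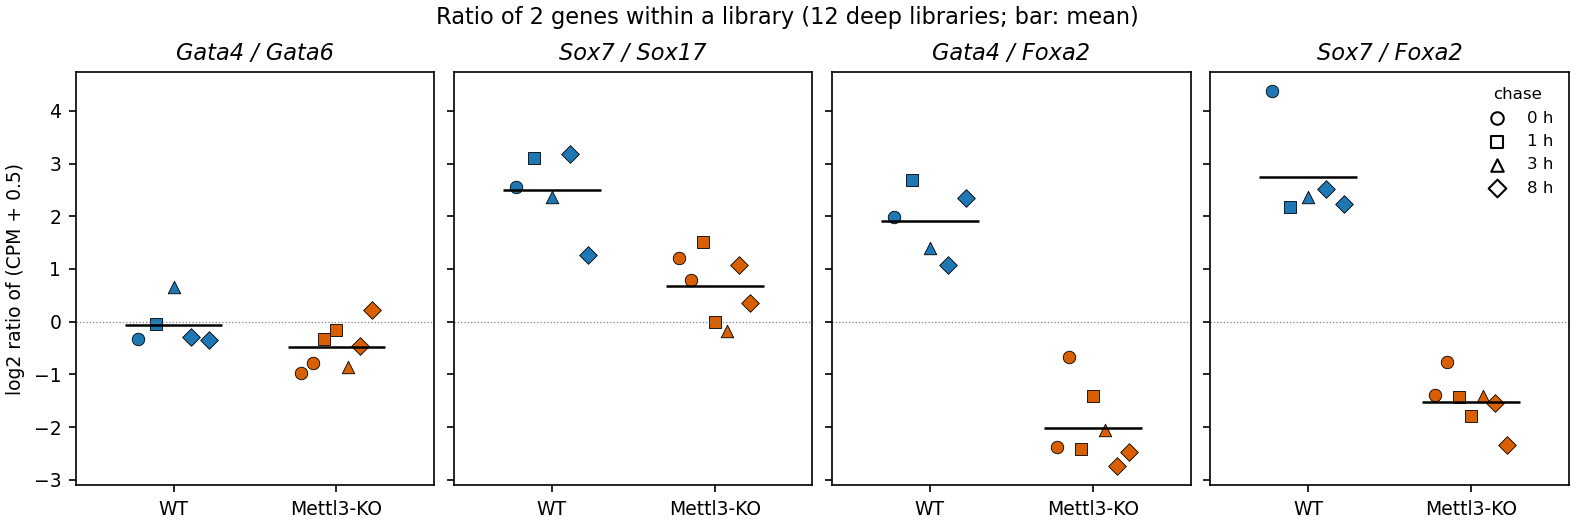
Log2 ratio of 2 genes within a library (y axis, ratio of CPM + 0.5) for 4 of the 10 pairs in the 12 deep libraries; blue is WT, orange Mettl3-KO, the symbol gives the chase time and the bar the mean. Gata4/Gata6 ratios overlap between genotypes, Sox7/Sox17 overlaps through 1 WT library, and Gata4/Foxa2 and Sox7/Foxa2 do not overlap.

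The label shows how much of each RNA was made during the S4U pulse and how fast it was lost. Sox7 conversion counts in WT were 148 of 269 total counts at 0 h, 28 of 44 at 1 h, 12 of 117 at 3 h, and 1 of 180 and 0 of 31 at 8 h. In Mettl3-KO they were 7 of 18 and 4 of 6 at 0 h, 7 of 27 and 1 of 10 at 1 h, 2 of 11 at 3 h, and 0 of 19 in both libraries at 8 h. Label was present in both genotypes at 0 h and nearly gone by 8 h. On the CPM scale of the total counts, Sox7 label at 0 h was lower in Mettl3-KO by 4.44 on the log2 scale (SE 0.93, edgeR adjusted p = 0.000592). With the replicate number as a block, Sox7 was at -3.70 and missed the threshold (edgeR adjusted p = 0.0672). Sox7 was the 1 gene of 4 called in this comparison, in which 6.27% of 12678 genes were called lower and 1.35% higher. It reached the filter of 10 conversions in 3 libraries through WT libraries alone, the group where it is high, so this call and the count of 1 are a description of these libraries and no support. Relative to its own total count, the Sox7 label at 0 h differed by -0.81 on the log2 scale (edgeR adjusted p = 0.740). The median over all genes was then -0.41.

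Gata4 conversion counts in WT were 22 of 44 at 0 h, 21 of 64 at 1 h, 9 of 57 at 3 h, and 0 of 61 and 0 of 34 at 8 h. In Mettl3-KO they were 4 of 5 and 0 of 7 at 0 h, 1 of 8 and 11 of 16 at 1 h, and 0 at 3 h and 8 h. The 2 Mettl3-KO replicates thus disagree at 0 h and at 1 h. At 8 h, 0 of 95 WT counts allows up to 3.16 conversions per 100 counts, and 0 of 21 Mettl3-KO counts up to 14.3. The difference in Gata4 label at 0 h was -3.64 (SE 1.16, edgeR adjusted p = 0.0895).

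Gata6 conversion counts in WT were 25 of 58 at 0 h, 10 of 66 at 1 h, 9 of 34 at 3 h, and 0 of 76 and 0 of 44 at 8 h. In Mettl3-KO they were 5 of 18 and 16 of 18 at 0 h, 0 of 13 and 9 of 19 at 1 h, 6 of 15 at 3 h, and 0 of 9 and 1 of 12 at 8 h. Again the 2 Mettl3-KO replicates differ at 0 h, where their 95% Wilson intervals of 12.5 to 50.9 and 67.2 to 96.9 per 100 counts do not overlap. The intervals cover counting error only. The label at 0 h differed by -2.20 (SE 1.07, edgeR adjusted p = 0.244).

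Foxa2 had label mainly in Mettl3-KO, where it has most of its counts. Conversion counts there were 17 of 61 and 9 of 16 at 0 h, 20 of 92 and 19 of 59 at 1 h, 0 of 49 at 3 h, and 2 of 66 and 0 of 150 at 8 h. In WT they were 1 of 4 at 0 h, 2 of 7 at 1 h, and 0 of 18 at 3 h and of 29 at 8 h. The Foxa2 label at 0 h differed by 2.44 (SE 1.40, edgeR adjusted p = 0.459). Foxa2 reached the filter through Mettl3-KO libraries alone, so its genotype differences in label and in label loss are descriptions only. Sox17 conversions were counted in 3 libraries: 12 of 38 in WT at 0 h, and in Mettl3-KO 2 of 3 at 0 h replicate 1 and 3 of 10 at 1 h replicate 2.

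**Figure D4:**
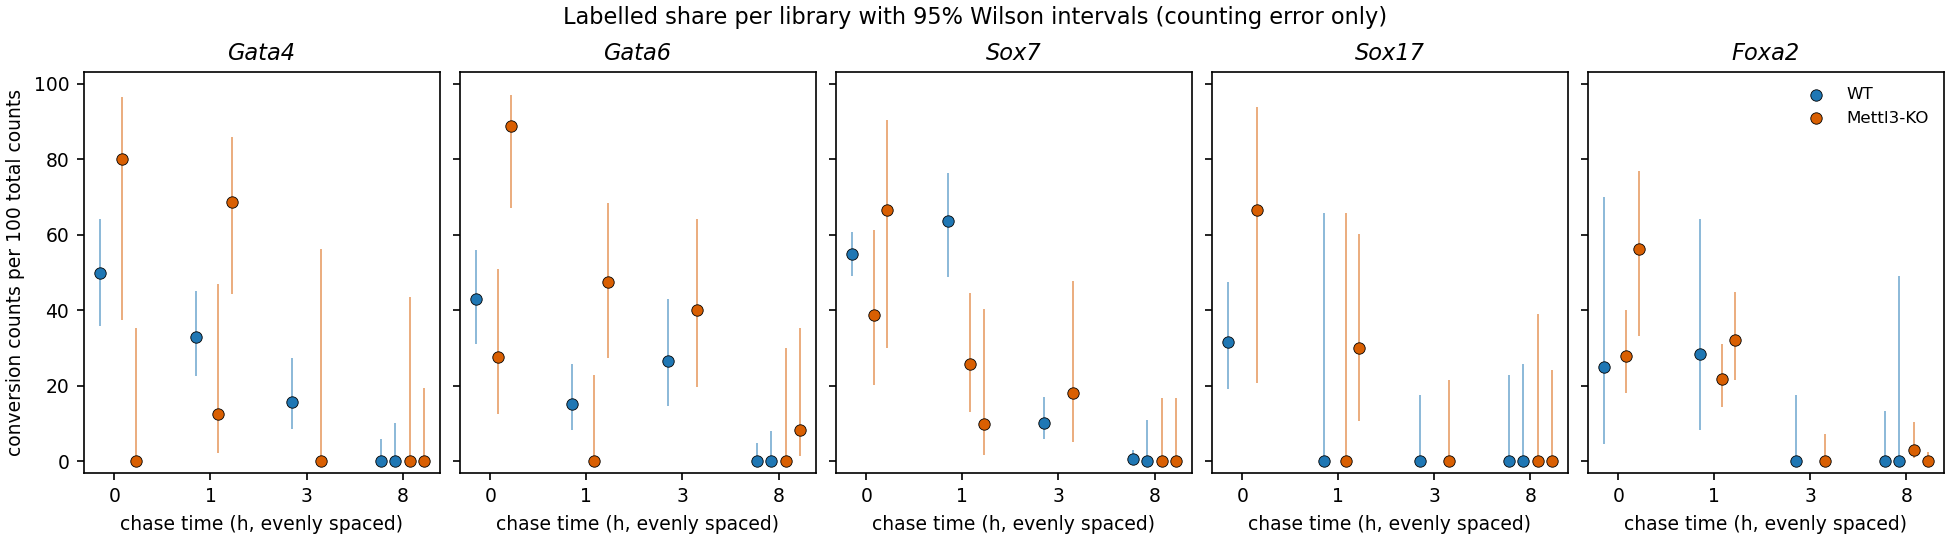
Conversion counts per 100 total counts (y axis) of each gene in the deep libraries by chase time (x axis, h, evenly spaced), with 95% Wilson intervals for counting error; blue is WT and orange Mettl3-KO, and libraries with 0 total counts have no point. Shares at 8 h are at most 8.33 per 100, and the intervals of Mettl3-KO are wide for Gata4, Gata6, Sox7 and Sox17 and narrower for Foxa2.

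Label loss was fitted as a log2 slope per hour of labelled RNA per unit of total RNA. In WT, Gata4 (-0.96, SE 0.31), Gata6 (-0.85, SE 0.30) and Sox7 (-0.93, SE 0.22) lost label, with edgeR adjusted p of 0.000811, 0.00179 and 3.29e-06. These slopes correspond to half-lives of 1.05, 1.18 and 1.07 h, with no correction for cell division. Foxa2 in WT had a slope of -0.88 (SE 0.79, edgeR adjusted p = 0.105) from 3 conversion counts in all. Thus 3 of 4 genes passed in WT, against 91.4% of 12678 genes.

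In Mettl3-KO all 4 genes passed, against 88.2% of genes. Slopes were -1.0 for Gata4 (SE 0.56, edgeR adjusted p = 0.0117), -0.53 for Gata6 (SE 0.22, adjusted p = 0.0107), -0.84 for Sox7 (SE 0.40, adjusted p = 0.00269) and -0.52 for Foxa2 (SE 0.19, adjusted p = 0.00879). Half-lives were 0.996, 1.87, 1.19 and 1.92 h. The interval of the Gata4 slope reaches from -2.11 to 0.10, so its half-life has no upper limit. These calls rest on scaling the label to total RNA: with TMM factors of the conversion counts, which remove the label loss common to all genes, no slope of the 4 genes passed in either genotype. In Mettl3-KO they also rest on the libraries at 8 h: without both, 0 of the 4 genes passed, and 3 of 12658 genes were called lower.

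The difference in loss rate, Mettl3-KO minus WT, was called for 0 of the 4 genes, with edgeR adjusted p between 0.713 and 0.991. Over all genes 2.4% were called slower and 0.205% faster in Mettl3-KO. The differences in log2 slope per hour were -0.05 for Gata4, 0.31 for Gata6, 0.09 for Sox7 and 0.36 for Foxa2, against a median of 0.10 over all genes. Their 95% intervals ran from -1.31 to 1.21, -0.41 to 1.04, -0.80 to 0.98 and -1.23 to 1.95. At this depth, neither equal loss nor a rate shifted by 0.5 per hour either way was outside the interval for Gata4, Sox7 and Foxa2.

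Gata4 (chromosome 14, 63198914 to 63271712) and Sox7 (chromosome 14, 63943706 to 63950732, both on GRCm38.p6) lie 672 kb apart. RefSeq places 15 genes between them, of which 5 were tested: Fam167a, Tdh, Mtmr9, Xkr6 and Pinx1. None of these 5 was called lower and Pinx1 was called higher (log2 difference 1.18, edgeR adjusted p = 0.0118, and 0.132 without the Mettl3-KO 8 h libraries). These genes were named for their position. Mettl3 lies on the same chromosome, at 52294841 to 52308741. Of 468 genes tested on chromosome 14, 15% were called lower, with a median log2 difference of 0.04. Sox17 lies on chromosome 1 (4490928 to 4497426) and Foxa2 on chromosome 2 (148042877 to 148046969), where the medians were -0.16 and 0.10.

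Foxa2 was the 1 gene of the 5 found in the RefSeq table of promoter windows, each from 250 bases before to 50 bases after a transcription start. Its 3 windows were searched on both strands for AGATAA, a form of the GATA motif, since Foxa2 and the GATA factors moved in opposite directions. It was present in 1 window, chr2:148045415-148045714 on the minus strand, with its first base 183 bases before the start (position -183). This window lies inside the annotated gene (148042877 to 148046969). The window at the 5′ end of the gene, chr2:148046920-148047219, had no match. The stretch around the match is shown 5′ to 3′, with the match in capitals.
Foxa2 promoter window: tgttagccttgAGATAAtattaactttg
The motif occurs in 11.2% of all 32851 windows, a share per single window, while 3 windows were searched for Foxa2. The SOX motif ACAATG (12.6% of windows) and the FOXA motif TGTTTAC (3.65%) did not occur in the 3 Foxa2 windows. A match describes the letters in the window and shows no binding.

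Gata4, Gata6, Sox7 and Sox17 are known to work with other genes of primitive and extraembryonic endoderm. Of 30 such genes listed, 19 were tested, and 7 were called lower and 1 higher in Mettl3-KO, with a median log2 difference of -0.69. For this list and those below, the shares over all genes were 9.99% lower and 12.1% higher. Values follow for the 4 with the smallest p. Lama1, a laminin chain, went from 88.6 CPM ± 17.6 (SD, n = 5) to 12.5 ± 3.25 (SD, n = 7), and Lamc1, another laminin chain, from 210.002 ± 78.6 to 53.1 ± 16.3. Collagen IV Col4a2 went from 17.2 ± 3.83 to 4.34 ± 1.71, and the proteoglycan Srgn from 9.14 ± 2.99 to 0.385 ± 0.502. Their log2 differences were -2.88, -1.95, -2.05 and -5.30 (edgeR adjusted p between 1.21e-05 and 0.00212). Other basement membrane genes of the list were not called with all libraries: Lamb1 (log2 difference -0.30), Nid1 (-0.14) and Col4a1 (-1.44). Of these, Col4a1 was called lower without the 2 shallow libraries. Its deep libraries averaged 41.3 CPM ± 7.60 in WT and 15.4 ± 1.97 in Mettl3-KO. In the other direction, Lrp2 and Pth1r of the list were called higher without the 2 shallow libraries. With all libraries their log2 differences were 0.83 and 0.44, and neither was called. With all libraries the 1 higher gene was Fgfr2, the FGF receptor that primitive endoderm cells carry. It stood at 0.943 CPM ± 0.923 in WT and 7.36 ± 2.41 in Mettl3-KO (log2 difference 2.95, edgeR adjusted p = 0.00194). Fgfr2 reached the filter of 10 counts in 6 libraries through Mettl3-KO libraries alone, the group where it is high. Its call and the counts of higher genes that include it are therefore descriptions only.

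Several genes that define the lineage were near 0 in both genotypes. Afp had no counts in any library, and Ttr, Plat, Apob, Cubn, Thbd and Ihh averaged below 0.4 CPM in each genotype. The receptor Pdgfra averaged 0.975 CPM in WT and 0.212 in Mettl3-KO, and was not tested. The nuclear receptor gene Hnf4a (1.31 and 0.117 CPM) was also below the filter. The adaptor Dab2 was not called, at 7.41 CPM ± 2.90 and 7.84 ± 3.77. The summed level of the list was 2716 to 3962 CPM in deep WT libraries and 1435 to 1915 in Mettl3-KO. Most of that sum came from Apoe (1615 CPM in WT and 857 in Mettl3-KO on average) and Sparc (1075 and 516), which many other cells also express. Its part in the differences of the 5 genes was not tested. Without the 2 shallow libraries, 8 genes of the list were called lower and 3 higher, and without the Mettl3-KO 8 h libraries 4 lower and 1 higher. Over all genes, leaving out the shallow libraries gave 2812 lower and 3189 higher of 14579. Leaving out the Mettl3-KO 8 h libraries gave 521 lower and 472 higher of 14184. Both backgrounds also apply to the lists below in these settings.

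FGF signalling directs cells to primitive endoderm, and its listed genes moved in both directions. Of 12 tested, 4 were called lower, with a list median of -0.20: the feedback inhibitors Spry2 (log2 difference -2.11), Spry4 (-1.17) and Dusp6 (-1.64), and the ETS factor Etv4 (-0.54). Fgfr2, also on this list, was the 1 called higher, and this count is a description only, for the reason given above. Without the 2 shallow libraries Fgf4 was called higher too. Spry2 fell from 1246 CPM ± 205 (SD, n = 5) to 265 ± 42.6 (SD, n = 7, edgeR adjusted p = 0.000103). Without the Mettl3-KO 8 h libraries Spry4 and Etv4 were no longer called, and with the replicate block Etv4 was not.

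Definitive endoderm and mesendoderm are the other lineages of Sox17 and Foxa2. Of 12 genes tested from their list, 2 were called lower and 1 higher, with a median of -0.17. The lower ones were T, the Brachyury gene (log2 difference -2.70), and Lefty1, a Nodal inhibitor (-1.41), and the higher one was Smad3 (0.95). Of these, T alone was called without the Mettl3-KO 8 h libraries. Over all genes 9.99% were called lower and 12.1% higher, and counts this small do not set the list apart. Without the 2 shallow libraries 11 were tested, and Gsc and Nodal were also called, giving 3 lower and 2 higher. Over all genes that setting called 2812 of 14579 lower and 3189 higher. Cer1, another inhibitor typical of endoderm, had 1 count in the deep libraries.

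Of the floor plate and notochord list, the setting in which Foxa2 works with hedgehog signalling, 6 of 13 genes were tested. Ptch1 (log2 difference 1.86) and Gli1 (1.98), both hedgehog targets, and Nkx2-9 (3.07) were called higher, and Foxj1 (-1.45) was called lower, with a median of 1.21. Nkx2-9 had 1 to 33 counts in deep WT libraries and reached the count filter with Mettl3-KO libraries alone, the group where it is high. Its call and the counts of higher genes that include it are therefore descriptions only. Ptch1 stood at 50.1 CPM ± 5.02 (SD, n = 5) in WT and 208 ± 57.8 (SD, n = 7) in Mettl3-KO. The Foxj1 call (edgeR adjusted p = 0.0495) was lost with the replicate block, and without the Mettl3-KO 8 h libraries only Ptch1 and Gli1 were called. Without the 2 shallow libraries, 4 genes of the list were called higher and 1 lower. Shh itself had 2 counts in deep WT and 8 in deep Mettl3-KO libraries, and Noto had none. Neural markers gave 3 higher and 1 lower of 6 tested. The neuronal genes Stmn2 (15.5 CPM in WT and 465 in Mettl3-KO on average), Tubb3 (12.9 and 118) and Map2 (3.1 and 12.3) were higher, Map2 not without the Mettl3-KO 8 h libraries. The progenitor gene Sox1 was lower (49.5 and 7.65 CPM), and Nes (4.55 and 2.37 CPM) and Pax6 (3.22 and 14.5 CPM) were not called. Without the 2 shallow libraries Pax6 was called higher and Nes lower, giving 4 higher and 2 lower of the 6. The summed level of the list, mostly Stmn2 and Tubb3 in Mettl3-KO, was 78.8 to 101 CPM in WT and 467 to 747 CPM in Mettl3-KO. Whether it has a part in the Foxa2 difference was not tested.

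**Figure D5:**
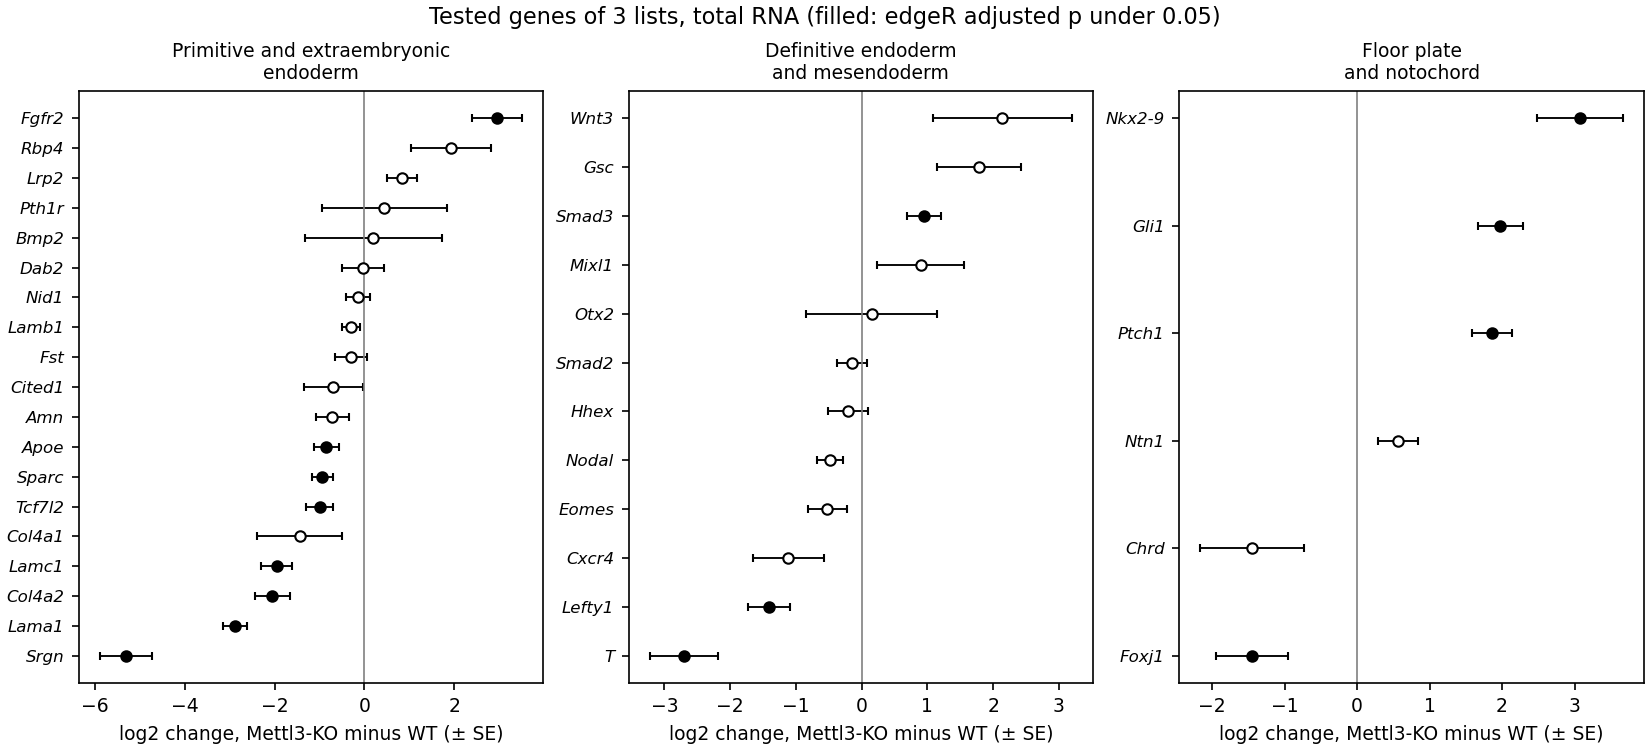
Log2 difference in total RNA, Mettl3-KO minus WT (x axis, bars ± SE from edgeR, all 14 libraries), for the tested genes of 3 lists; filled points have an adjusted p under 0.05. In primitive and extraembryonic endoderm 7 genes are filled below 0 and Fgfr2 above, in definitive endoderm and mesendoderm T and Lefty1 are below and Smad3 above, and in floor plate and notochord Ptch1, Gli1 and Nkx2-9 are above and Foxj1 below.

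Of 9 other GATA, SOXF and FOXA family members and FOG cofactors, 5 were tested, and 2 were called higher and none lower, with a median of 0.61. Zfpm1, the GATA cofactor FOG1, went from 6.98 CPM ± 2.76 (SD, n = 5) to 25.4 ± 6.43 (SD, n = 7), and Gata1, a blood lineage GATA factor, from 0.237 ± 0.50 to 1.36 ± 0.61 (edgeR adjusted p = 0.00514 and 0.0174). Mettl3-KO libraries alone brought Gata1 past the filter of 10 counts in 6 libraries, and they are the group where it is high. Its call and the count of 2 are descriptions only. Without the 2 shallow libraries, Gata2 and Gata3 were called lower, giving 2 higher and 2 lower. Without the Mettl3-KO 8 h libraries none of the 5 was called. Foxa1, the closest relative of Foxa2, was below the filter. It had 0 counts in every deep WT library and 1 count in the shallow one. Every deep Mettl3-KO library held it, with 4 to 18 counts (0.199 to 1.15 CPM). Complete separation with Mettl3-KO above WT in deep libraries was present in 13.1% of the 14641 genes tested. Foxa1 is named after its values were seen.

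Of the other cell types checked, 1 of 3 trophoblast markers tested (Tfap2c, log2 difference 1.23) and 0 of 3 fibroblast markers were called. These counts rest on edgeR with all libraries, and without the shallow ones Cdx2 (trophoblast), Col1a1 (fibroblast) and Dppa5a (pluripotency) were called lower too. Of 8 pluripotency genes, Esrrb was called lower (log2 difference -0.90, edgeR adjusted p = 0.0278) and none higher, and Esrrb was not called without the Mettl3-KO 8 h libraries.

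Genes whose level was most like each of the 5 were sought over the 12 deep libraries, by Pearson's r of log2(CPM + 0.5). These 12 points share the genotype split, so r reflects it in large part and is given as a description. For Gata4 they were Nedd4l (r = 0.983), Hunk, Cnppd1, Arl4c and Tagln2 (0.977), and for Gata6 they were Ap4m1 (0.973), Sarm1, Pkp4, Zfp423 and Cflar (0.962). Those of Sox7 were Fzd10 (0.977), Cth, Commd6, Ap3m2 and Uchl3 (0.966). Sox17 had lower values, for Cluap1 (0.925), Vps4b, Isl1, Snora44 and C2cd2l (0.901). For Foxa2 they were Lratd2 (0.919), Pphln1, Polr3g, Sdhaf3 and Simc1 (0.889). No gene stood on more than 1 of these lists, and none was an endoderm gene of the lists above.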

How the data were processed

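Total counts and T>C conversion counts per gene were deposited by the authors as whole numbers. The authors also deposited log2 values that they normalized by steps not stated in the file header, used here only as an alternative. Tools listed by the submitters' processing notes are Trim Galore 0.4.0 and edgeR 3.32.1, with featureCounts, Subread 1.5.0 and the build mm10. The aligner and conversion caller: not given in the sources used here. The same holds for the unit of a conversion count, which may be a read or a base: in 152 genes some library holds more conversions than total counts. The deposited half-life table lists none of the 5 genes and was not used. The 1 entry without a name (0.00707% to 0.0312% of counts) was left out.

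Tests used edgeR 4.0.16 in R 4.3.3 (quasi-likelihood, robust, TMM) on all 14 libraries. Total RNA was fitted with chase time as a factor, for genes reaching 10 counts in 6 or more libraries. Label was fitted with genotype, hours and their interaction, for genes reaching 10 conversions in 3 or more libraries, scaled by the TMM-scaled total of the library. Label values of the 5 genes are maximum likelihood estimates with Wald standard errors, and p-values are edgeR's. The tests were tried on simulated data. Genes were named as follows: the 5, Mettl3, Pou5f1, Sox2 and Nanog, up to 4 called genes per list and direction, and the 5 genes most correlated with each. Others were named for their position or after their values were seen. The genes and lists were chosen with earlier results of these data known. Alternatives were DESeq2 1.42.0, limma 3.58.1 on the authors' values, other filters, scalings, pseudocounts and library sets, and a replicate block.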

Additional observations from a re-analysis of the deposited data

How the results depend on the processing

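Gata4, Gata6 and Sox7 were called lower in total RNA in every edgeR and DESeq2 fit run, and 3 or 4 genes were called lower when single libraries were left out. The count called higher (Foxa2) was 0 with no count filter (edgeR adjusted p = 0.0893) and without both Mettl3-KO 8 h libraries, a setting chosen after seeing the data, and 0 to 1 without single libraries. Sign changes in slopes that were never called: total RNA by genotype and hours for Foxa2, -0.0036 with the replicate block, -0.30 without the Mettl3-KO 8 h libraries and -0.087 to 0.14 leaving out single libraries; for Gata4 -0.45 and -0.063 to 0.13; for Sox7 -0.20.

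The count with lower label at 0 h was 0 with the gene's total count as offset, 0 with the replicate block and 0 to 2 without single libraries, and Foxa2 was then -0.13 with the offset. Genes losing label in WT were 0 with TMM factors of the conversion counts and 0 to 3 without single libraries. In Mettl3-KO they were 2 in DESeq2, 0 with limma, 0 with TMM factors of the conversion counts, 0 without both 8 h libraries and 1 to 4 without single libraries. Differences in loss changed sign for Gata4 (0.39 in DESeq2, 0.49 with limma, 0.12 without the Mettl3-KO 8 h libraries, -0.63 to 0.24 without single libraries), Sox7 (-0.11 with the replicate block, -0.12 with TMM factors of the conversion counts, -0.17 to 0.24) and Foxa2 (-0.045 with limma, -0.71 without the Mettl3-KO 8 h libraries, -0.74 to 0.51). Without WT at 0 h or WT at 1 h replicate 1, only 1 gene passed the label filter. A filter of 10 conversions in 6 libraries, and the 1 h and 8 h libraries alone, left none. Pairs called were 0 to 6 without single libraries and 0 without the Mettl3-KO 8 h libraries, and Gata4/Sox7 ran from -0.048 to 0.67. The cause of these changes was not tested.

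Same-numbered libraries did not vary together (correlations -0.08 to 0.27), so the block is only an alternative, and it changed no other call of the 5 genes. Of the named list genes, Foxj1 and Etv4 were not called with it, nor was Apoe. Over all genes, total RNA calls (1769 higher, 1462 lower) were 3189 and 2812 without the shallow libraries, 2459 and 2358 in DESeq2, 1097 and 973 with no filter and 472 and 521 without the Mettl3-KO 8 h libraries. Label calls at 0 h (171 and 795) were 382 and 500 with TMM factors of the conversion counts, 0 and 1 with the own offset and 142 and 466 with the block. Loss differences (304 slower, 26 faster) were 640 and 38 without the shallow libraries, 684 and 44 in DESeq2, 210 and 114 with TMM factors of the conversion counts, 1000 and 11 with limma, 83 and 3 without the Mettl3-KO 8 h libraries and 102 and 26 in the 1 h and 8 h libraries. Genes losing label (11587 in WT, 11181 in Mettl3-KO) were 287 and 967 with TMM factors of the conversion counts. Sox17 had too few conversion counts for the label tests.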
